A study of Mus musculus with 2 samples.

Results

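Plasmacytoid dendritic cells (pDC) among the leukocytes of B16-F10 melanomas were chosen from raw counts of unique molecular identifiers (UMIs, each 1 captured RNA molecule). A member had at least 2 UMIs of Siglech, at least 1 UMI over Tcf4, Cox6a2, Ccr9 and Klk1, no UMI of Cd3d, Cd3e or Cd3g, at most 1 UMI of Cd79a, and no UMI of C1qa, C1qb, Xcr1 or Cd209a. The rule found 180 of 18539 cells, 33 in the DOPAC library and 147 in the Control library. Because these counts chose the members, the levels of the rule's genes and the number of members are given as descriptions.

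The samples were leukocytes sorted by CD45 from tumors of wild-type mice and sequenced in droplets; the tumors grew from B16-F10, a line of mouse melanoma cells. The DOPAC mice received 3,4-dihydroxyphenylacetic acid, a breakdown product of dopamine, and the Control mice received vehicle; dose, time, age and strain are not given in the sources used here. The design gives 4 mice per group, and each group is 1 library with no tag that assigns a cell to a mouse, so there was no replicate and no test between groups. Every interval below is a 95% interval for counting error only and does not cover differences between mice or library preparations. The fold intervals treat each UMI as independent and so also leave out variation between cells. They are too narrow for genes whose UMIs gather in few cells. The extract protocol speaks of colon tissue, whereas the tissue label and the design name tumors.

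The libraries differed in depth. The 33 DOPAC pDC held 135052 UMIs and the 147 Control pDC held 1563042, with medians of 4032 and 10682 UMIs and of 1726 and 3120 genes per cell. Over all kept cells the medians were 3677 UMIs in the DOPAC library and 9571.5 in the Control library. The pDC medians of the mitochondrial share were 4.05% in DOPAC and 4.03% in Control. The libraries shared 28 cell barcodes among kept cells and 0 among pDC. One UMI of the summed DOPAC pDC equals 7.40 CPM (UMIs of a gene per 1000000 UMIs of the sum) and 1 UMI of the Control pDC 0.640 CPM, so low values are far coarser in DOPAC.

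Plasmacytoid dendritic cells are a rare lineage of blood, lymphoid organs and inflamed tissue that senses viral and self nucleic acid in endosomes through Toll-like receptors and can then release large amounts of type I interferon. The E protein TCF4 sets their identity, IRF8 acts in their development and IRF7 drives their interferon genes. SIGLEC-H signals through the adaptor DAP12, encoded by Tyrobp, and BST2 is an interferon-induced surface protein that antibodies use to mark mouse pDC. In tumors, pDC have been described both as poorly responsive cells and as sources of chemokines, granzyme B and interferon.

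E proteins such as TCF4 bind the E-box CANNTG, and the promoters of 4 genes that marked the members are shown because each holds the E-box variant CAGGTG or its reverse complement CACCTG. The windows run from 250 bases before to 50 bases after a start annotated in RefSeq on GRCm38.p6. For all 4 genes that start lies inside the bounds that GENCODE gives the gene, close to the edge for Siglech and Paqr5 and far inside for Ccr9 and Cd300c. The windows read 5′ to 3′ on the gene's strand and carry the motif in capitals.
Siglech, chr7:55767934-55768233, plus strand: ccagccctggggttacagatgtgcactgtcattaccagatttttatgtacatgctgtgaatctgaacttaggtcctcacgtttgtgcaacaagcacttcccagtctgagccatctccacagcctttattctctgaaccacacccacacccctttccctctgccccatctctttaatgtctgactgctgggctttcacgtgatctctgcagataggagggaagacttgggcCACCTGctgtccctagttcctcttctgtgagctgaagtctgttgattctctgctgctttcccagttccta
Ccr9, chr9:123766961-123767260, plus strand: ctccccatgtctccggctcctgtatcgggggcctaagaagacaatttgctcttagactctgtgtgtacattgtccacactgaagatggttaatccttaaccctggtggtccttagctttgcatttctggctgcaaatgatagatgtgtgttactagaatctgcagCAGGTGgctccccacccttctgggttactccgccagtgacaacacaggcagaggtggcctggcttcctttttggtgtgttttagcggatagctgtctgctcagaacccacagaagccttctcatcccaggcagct
Cd300c, chr11:114960458-114960757, minus strand: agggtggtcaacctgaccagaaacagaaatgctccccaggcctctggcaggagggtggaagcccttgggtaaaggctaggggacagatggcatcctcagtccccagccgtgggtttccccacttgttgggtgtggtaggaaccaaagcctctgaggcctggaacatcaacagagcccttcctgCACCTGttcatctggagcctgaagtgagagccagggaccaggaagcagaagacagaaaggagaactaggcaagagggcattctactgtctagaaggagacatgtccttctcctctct
Paqr5, chr9:62026741-62027040, minus strand: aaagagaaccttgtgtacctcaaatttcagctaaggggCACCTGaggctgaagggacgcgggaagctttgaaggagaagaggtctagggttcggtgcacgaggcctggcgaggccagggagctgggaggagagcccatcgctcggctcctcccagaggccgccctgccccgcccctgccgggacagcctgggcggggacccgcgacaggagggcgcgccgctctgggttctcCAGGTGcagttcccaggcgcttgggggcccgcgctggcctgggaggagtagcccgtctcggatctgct

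Of the 20 leading genes of the members, 14 had a promoter in the table, and 9 of these 14 (64.3%) held CAGGTG or CACCTG on either strand in at least 1 window, against 22.6% of all 27025 genes with a promoter. By window the shares were 57.9% of 19 and 20.2% of 32851. The general E-box CANNTG, which includes both variants, was in 73.7% of the 19 windows and 72.3% of all windows. By gene, CAGCTG was in 14.3% against 18.3%, the ETS-like GGAAGT or ACTTCC in 21.4% against 26.6%, and the core of the interferon-stimulated response element in 14.3%, or 2 of 14 genes, against 3.99%. These 5 motifs were all that were searched. Of the 9 genes with CAGGTG or CACCTG, Siglech, Ccr9 and Klk1 are genes of the rule, and Klk1b27 is a near copy of Klk1. Grm8 and Lrp8 hold a variant in only some of their windows. The rule thus put part of these genes on the list. A match is only a description of letters and was not tested.

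The label was checked on Bst2 and Ly6d, which the rule did not use. Bst2 was found in 30 DOPAC cells (90.9%) and in all 147 Control cells. Ly6d, a surface protein of lymphoid progenitors that pDC keep, was found in 27 DOPAC cells (81.8%) and in 134 Control cells (91.2%). The rule itself favoured cells with Tcf4, Ccr9 and Cox6a2, so their detection is a description. All 33 DOPAC cells and all 147 Control cells had a Tcf4 UMI. Ccr9, a homing receptor for the chemokine CCL25, had a UMI in 87.9% of the DOPAC members and 98.6% of those in Control, and Cox6a2, a cytochrome c oxidase subunit otherwise typical of muscle, in 78.8% and 88.4%.

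Siglech was at 1525 CPM in DOPAC and 1505 CPM in Control pDC, Ccr9 at 1710 and 1635 CPM, Cox6a2 at 718 and 675 CPM, and Klk1, a tissue kallikrein, at 407 and 338 CPM. Tcf4 was at 3806 CPM in DOPAC and 4660 CPM in Control, Bst2 at 2021 and 2496 CPM, and Ly6d at 1488 and 2112 CPM. The last 3 had intervals of the fold wholly below 1, and 0 of the 6 label markers reached a 1.5-fold difference among all members. With the further exclusion genes the log2 ratio of Ly6d was -0.88, and it was -0.85 with members thinned to 1000 UMIs, both past 1.5-fold, and that of Klk1 turned to -0.73 and -0.65 under the same settings.

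**Figure D1:**
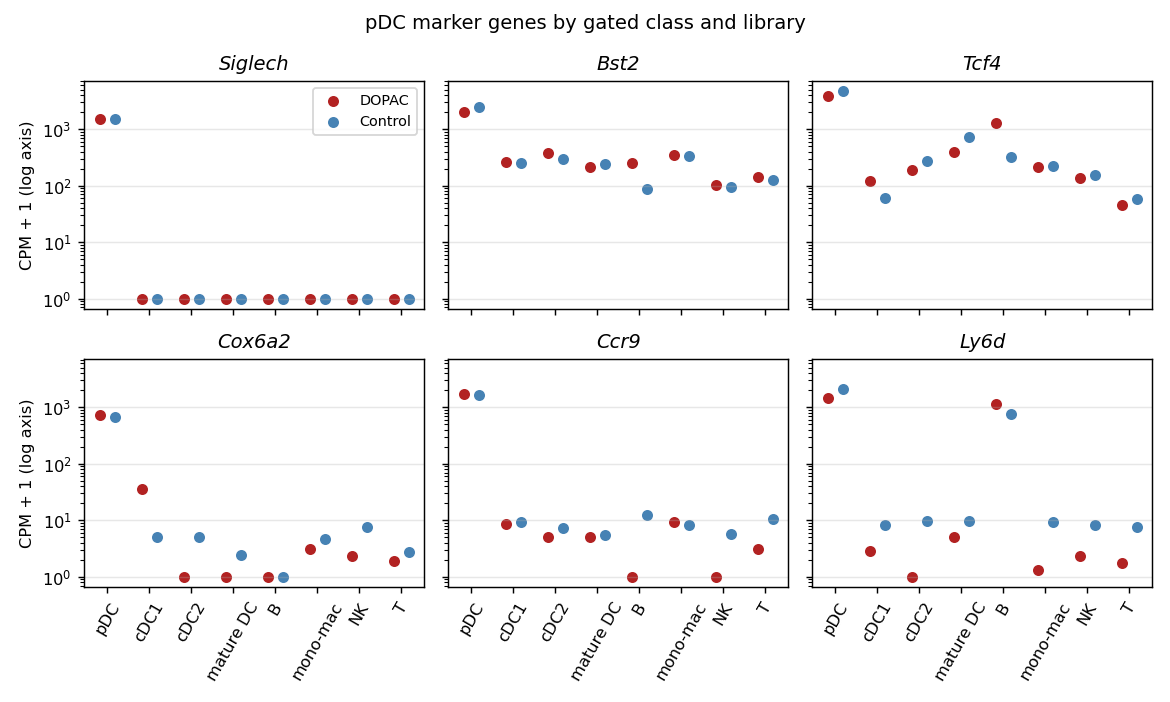
Summed level (CPM + 1, log axis) of the 6 label markers in 8 gated classes, with DOPAC left of Control in each class. All 6 are highest in the pDC gate of both libraries; Siglech is 0 in the other gates because they exclude it, and Ly6d is also high in the B gate.

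The 20 leading genes, ranked by the smaller of the 2 libraries' folds of pDC over all other kept cells, were in order Klk1b27, Grm8, Ccr9, Siglech, Gm21762, Pdzd4, Klk1, Smim5, Cd300c, Cox6a2, Ly6d, Paqr5, Slco4a1, Atp2a1, Iglc3, Gm13919, Lrp8, Pacsin1, Zc3h12b and Cacna1e. They include kallikreins, an immunoglobulin lambda constant segment and genes of excitable cells, namely the glutamate receptor gene Grm8 and the calcium channel gene Cacna1e. Grm8 was at 629 CPM in DOPAC pDC and 836 CPM in Control pDC, and Cacna1e at 400 and 716 CPM. The fold of Siglech over other kept cells was 394 in DOPAC and 26.6 in Control, because the other kept cells of the Control library include many that passed the Siglech condition and were removed by the exclusion genes. Klk1 and Klk1b27 are near-identical copies, and their counts may be split between them.

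Marker lists of other types were present in part. Of 14 B-cell genes 4 had a UMI in DOPAC and 12 in Control, with sums of 1185 and 1088 CPM, of which the immunoglobulin gene Ighm gave 444 and 557 CPM. Cd79a, Cd79b and Ms4a1 were at 0 UMIs in the DOPAC members, whereas in Control Ms4a1 was at 0 and Cd79b had 34 UMIs. Of 10 neutrophil genes 2 and 5 had a UMI, with sums of 51.8 and 37.1 CPM, and S100a8, S100a9 and Ly6g were at 0 in DOPAC. Of 12 mature DC genes 9 and 12 had a UMI, with sums of 1014 and 681 CPM. Ncr1 of NK cells was at 0 in both libraries, while Cd3, C1qa, C1qb, Xcr1 and Cd209a were at 0 by the rule. Of 16 T-cell genes 9 had a UMI in DOPAC and 13 in Control, with sums of 341 and 214 CPM. Of 13 NK genes 7 and 12 had a UMI, with sums of 733 and 175 CPM. Of 20 macrophage and monocyte genes 15 and 18 had a UMI, with sums of 2118 and 1683 CPM, both above the level of Siglech, and with 0 cells lacking them in either library. The melanoma list summed to 37.0 CPM in DOPAC and 71.7 CPM in Control, with Mlana at 0 in both. The part of RNA of other types in the pDC values was not tested, except where values without single cells are given.

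The pDC made up 0.327% (0.225 to 0.459, exact Clopper-Pearson interval) of 10095 kept DOPAC cells and 1.74% (1.47 to 2.04) of 8444 kept Control cells. The difference was -1.41 percentage points (-1.73 to -1.12, Newcombe interval). Of kept cells without a Cd3 UMI they were 0.938% in DOPAC and 2.66% in Control. Of the cells in the 4 dendritic gates together, they were 33 of 204 (16.2%, 11.4 to 22.0) in DOPAC and 147 of 359 (40.9%, 35.8 to 46.2) in Control. Among the other dendritic gates, cDC1 were at 0.664% in DOPAC and 0.628% in Control with overlapping intervals, cDC2 0.485% and 1.15%, and mature DC 0.545% and 0.734%. These gates too exclude any Cd3, C1qa or C1qb UMI. Their shares and the dendritic total of 204 and 359 cells therefore depend on the same exclusion genes, and they were not counted without them. The T gate held 42.2% of DOPAC and 10.5% of Control cells, so every other share moves with it. It leaves out cells with a C1qa or C1qb UMI. Of cells with at least 2 Cd3 UMIs and no Siglech UMI, 19.05% in DOPAC and 54.01% in Control had one. The T gate thus misses a larger part of such cells in Control.

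The exclusion genes weighed more on the Control library. Before them, 58 DOPAC cells (0.575%) and 493 Control cells (5.84%) passed the Siglech and second conditions. Exclusion removed 25 of the 58 (43.1%) and 346 of the 493 (70.2%). A C1qa or C1qb UMI, the mark of macrophages, removed 4 DOPAC cells and 275 Control cells, whereas a Cd3 UMI removed 23 and 90. C1qa or C1qb UMIs also occurred in 1002 DOPAC cells (19.05%) and 1063 Control cells (54.01%) with at least 2 Cd3 UMIs and no Siglech, which should lack these genes. The median depths of all such T-type cells, with or without a C1q UMI, were 4532.5 and 7400.5 UMIs. The removed cells still carried the pDC genes, with Tcf4 at 2744 CPM in DOPAC and 3754 CPM in Control and Ccr9 at 1786 and 1047 CPM.

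The size of the share difference therefore rested on the exclusion rule. Without exclusion genes it was -5.26 points (-5.80 to -4.76), without the C1q condition -3.25 points, and with 1 UMI of each exclusion set allowed -3.32 points. With a UMI of further exclusion genes, among them Ms4a1, Nkg7, Lyz2, Csf1r, S100a8, Pmel and Mlana, also excluded, only 17 DOPAC cells (0.168%) and 25 Control cells (0.296%) remained, and the interval of the difference, -0.128 points (-0.282 to 0.011), included 0. When cells were thinned to 1000 UMIs and gated again, the share had a median over 20 draws of 0.181% in DOPAC and 1.86% in Control, with 413 and 103 shallower cells left out. The share was lower in DOPAC under each of these rules, and only the strictest left an interval that reached 0.

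**Figure D2:**
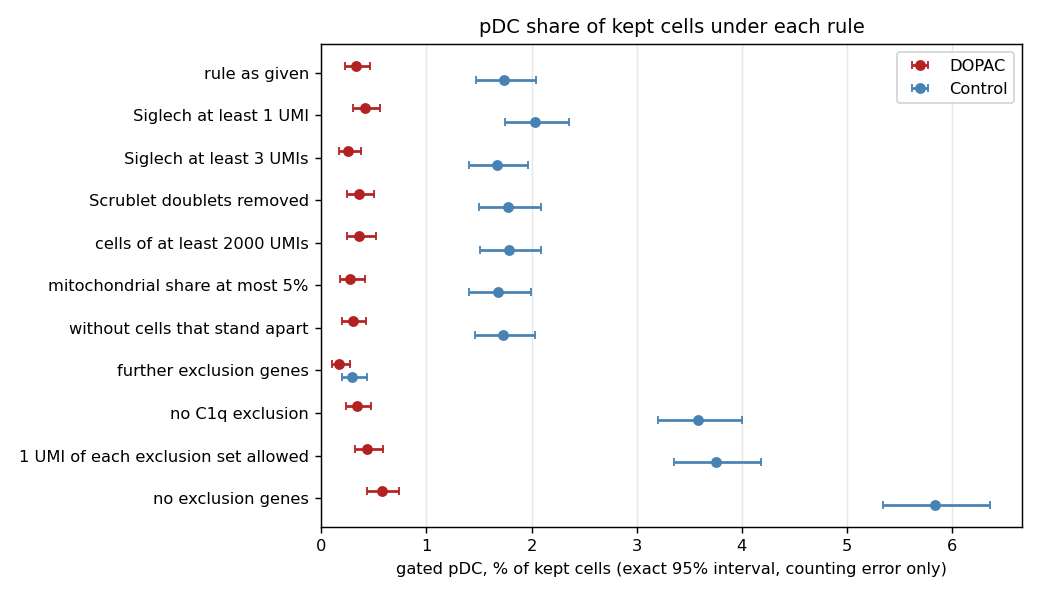
Share of kept cells in the pDC gate (percent, points with exact 95% intervals) for DOPAC above Control under 11 versions of the rule. The DOPAC share stays between 0.168% and 0.575%, whereas the Control share runs between 0.296% and 5.84% and depends on the exclusion genes.

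At the threshold of the rule, the 7 DOPAC members with exactly 2 Siglech UMIs held Bst2 at 2084 CPM and Tcf4 at 2859 CPM, and the 6 such Control members held them at 2000 and 4293 CPM. The 9 DOPAC cells with 1 Siglech UMI that met the other conditions held Bst2 at 839 CPM and Tcf4 at 2308 CPM. The 25 such Control cells held Bst2 at 478 CPM, Tcf4 at 676 CPM and Ccr9 at 41.1 CPM.

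Expression was compared as summed UMIs of the members, with the fold of CPM and its exact conditional interval. At 20 or more UMIs in both sums together, 7049 genes were compared. Of these, 1177 (16.7%) were at least 1.5-fold higher and 2072 (29.4%) at least 1.5-fold lower in DOPAC. The whole interval lay past 1.5-fold for 98 higher genes (1.39%) and 57 lower genes (0.809%), and on one side of 1 for 490 higher (6.95%) and 460 lower genes (6.53%). Among the 1261 genes of at least 250 UMIs, 102 (8.09%) were 1.5-fold higher and 217 (17.2%) 1.5-fold lower. The median log2 ratio over all genes was 0.10, and list medians are read against it. With 1 library per group, none of these counts says how many genes differ between treatments.

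Many of the largest increases rested on single cells. Of the 10 genes ranked highest in DOPAC, Cxcl9 had 19 of its 24 UMIs in 1 cell, Acod1 17 of 19, Slc7a11 27 of 30, F10 11 of 13 and Exoc3l2 18 of 22, all in the same DOPAC cell, the deepest at 7396 UMIs. Another DOPAC cell held all 11 UMIs of Slfn4, and another one held 26 of 71 Ccl5, 8 of 14 Gzmb and 5 of 8 Gzma UMIs and no Bst2. These 3 cells, with 1 Control cell of 7 Gzma UMIs that Scrublet marked as a doublet, stand apart by genes of myeloid cells or of cytotoxic lymphocytes. They were picked after the data were seen, by many UMIs summed over Acod1, Cxcl9, Slc7a11 and Slfn4 or over Gzmb, Gzma and Nkg7. A list that holds such a gene therefore loses UMIs by the choice itself when these cells are left out. Cells high in other genes stayed in. The cells that stand apart keep 2 to 16 Siglech UMIs and 2 to 20 Tcf4 UMIs. Results are therefore also given without each gene's highest cell in each library, a choice made after the data were seen and harder on the 33 DOPAC cells than on the 147 Control cells. With that condition added, 35 higher genes (0.497%) and 56 lower genes (0.794%) had intervals past 1.5-fold, and 3.49% and 10.2% of all genes had an interval above or below 1 without their highest cell.

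**Figure D3:**
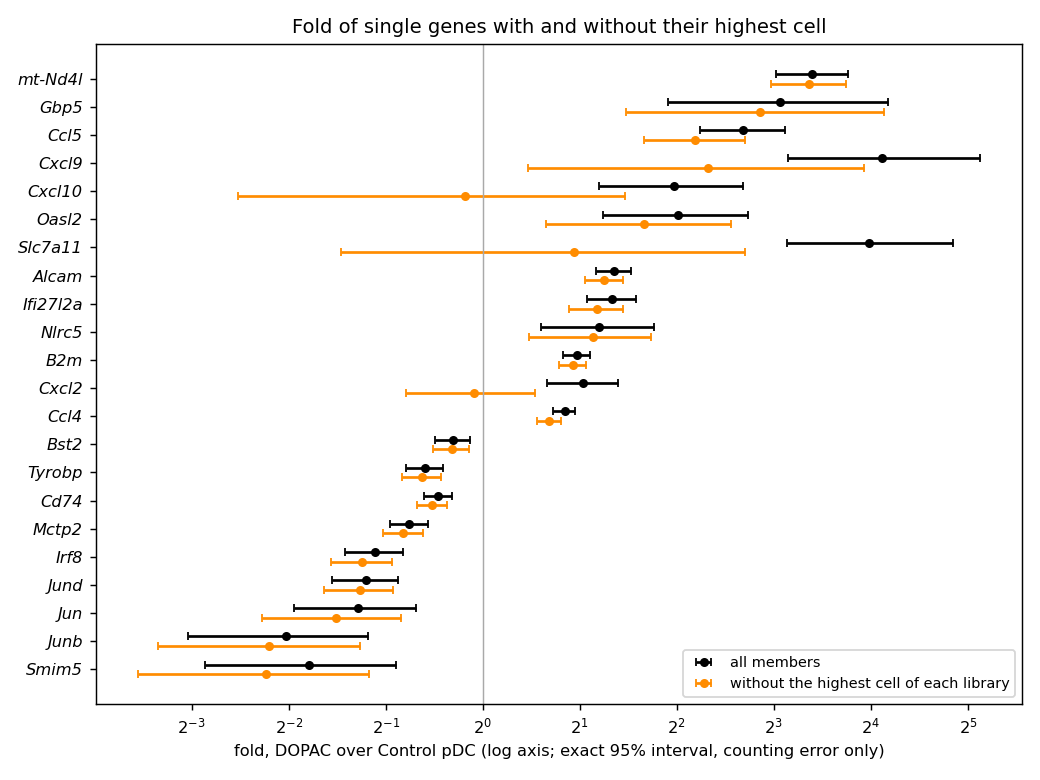
Fold of DOPAC over Control pDC (log axis, exact 95% interval) for 22 genes, with all members and without the highest cell of each library. For Cxcl10, Cxcl2 and Slc7a11 the interval includes 1 without that cell, whereas Alcam, Ifi27l2a, Nlrc5, B2m and Ccl4 stay above 1 and Irf8, Jund, Junb and Smim5 stay below it.

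The interferon genes themselves were almost silent. Over 20 type I and III interferon genes, the DOPAC members held 1 UMI in 1 of 33 cells (3.03%, 0.0767 to 15.8), of Ifnl2, and the Control members 10 UMIs in 7 of 147 cells (4.76%, 1.94 to 9.57), of Ifnb1, Ifnk and Ifnl2. The intervals overlap widely.

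Genes that interferons induce were more often higher in DOPAC pDC. Of 30 type I interferon response genes, 10 had an interval above 1 and 1 below, against 6.95% and 6.53% of all genes, and the list median was 0.67 on the log2 scale. Ifi27l2a, a gene strongly induced by type I interferon, was at 1163 CPM in DOPAC and 462 CPM in Control (2.52-fold, 2.10 to 2.99), with a UMI in 29 of 33 and 121 of 147 cells. Oasl2 was at 163 and 40.3 CPM and Oasl1 at 111 and 37.7 CPM, both relatives of the oligoadenylate synthetases. The main pDC interferon regulator gene Irf7 was at 81.5 CPM in DOPAC and 131 CPM in Control, with an interval that included 1, and Isg15 at 96.3 and 107 CPM. The members of the list thus did not move together. The median was 0.48 without the 4 cells that stand apart and 0.27 with the further exclusion genes. In other gates of the same libraries it was 0.997 in monocyte-macrophage, 0.75 in cDC2, 0.75 in mature DC, 0.48 in cDC1 and 0.46 in T cells. The direction was thus shared with them and not particular to pDC.

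Of 16 interferon gamma response genes, 7 had an interval above 1 and 2 below, against 6.95% and 6.53% of all genes, and the list median was 1.28. Gbp5, a guanylate-binding protein gene, was at 96.3 CPM in DOPAC and 11.5 CPM in Control (8.36-fold, 3.77 to 18.04), with UMIs in 6 and 14 cells; its log2 ratio was 3.09, and 1.91 with no exclusion genes. Nlrc5, the transactivator of MHC class I genes, was at 230 and 99.8 CPM (2.30-fold, 1.51 to 3.40). Socs1, a feedback inhibitor, had 0 UMIs in DOPAC and 63 in Control, and Irf1 was at 66.6 and 214 CPM. The chemokine genes Cxcl9 and Cxcl10 belong here, with 19 of 24 and 19 of 22 DOPAC UMIs each in 1 cell. Without each gene's highest cell, 3 of the 16 had an interval above 1 and 2 below, against 3.49% and 10.2% of all genes. The list medians in other gates of the same libraries were 1.66 in monocyte-macrophage, 0.67 in T, 0.87 in cDC1 and 0.84 in cDC2 cells, so the direction was shared with them. In pDC the median fell to 0.50 without the 4 cells that stand apart and to 0.04 with the further exclusion genes. Over the members with enough UMIs after thinning to 1000 UMIs per cell it was -0.88. At a minimum of 250 UMIs it was -1.53, which is the value of Irf1 alone. Neither of the last 2 values describes the whole list.

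B2m, the light chain of MHC class I, was 1.96-fold higher (1.78 to 2.15), at 3724 CPM in DOPAC and 1905 CPM in Control. Per cell its median was 3786 CPM in DOPAC and 1843 CPM in Control, and the middle ranges between quartiles, 2568 to 4377 and 1458 to 2315 CPM, did not overlap. The heavy chain gene H2-K1 was at 1755 and 1225 CPM (interval of the fold 1.25 to 1.64), and H2-D1 at 1140 and 1178 CPM. Over the 16 class I genes, 4 intervals were above 1 and 1 below, against 6.95% and 6.53% of all genes, with a median of 0.16. That median was -0.057 with at most 5% mitochondrial UMIs, -0.068 without each gene's highest cell and -0.039 over the members of at least 250 UMIs. B2m was also higher in DOPAC in the T gate, at 3093 against 2146 CPM, and in cDC2, at 2970 against 1654 CPM.

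Of 12 MHC class II genes, 0 had an interval above 1 and 4 below, against 6.95% and 6.53% of all genes, with a median of -0.29. Cd74, the invariant chain, was at 3028 CPM in DOPAC and 4164 CPM in Control pDC (interval of the fold 0.66 to 0.80), and H2-DMb1, a chain of the peptide editor, at 51.8 and 152 CPM. H2-Eb1 was at 844 and 749 CPM with an interval that included 1. Cd74 was likewise lower in DOPAC cDC1, at 8492 against 14414 CPM, and cDC2, at 9635 against 18131 CPM.

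Among chemokines, Ccl4, which attracts lymphocytes and myeloid cells, stood out by level. It was at 5391 CPM in DOPAC and 3004 CPM in Control pDC (1.79-fold, 1.66 to 1.94). The cells varied greatly. In DOPAC the lowest cell was at 0, the median at 2189 and the highest at 25223 CPM, and in Control the lowest was at 0, the median at 1116 and the highest at 28402 CPM. At least 10000 CPM was held by 5 of 33 DOPAC cells (15.2%, 5.11 to 31.9), which had 502 of 728 UMIs, and by 10 of 147 Control cells (6.80%, 3.31 to 12.2), which had 1908 of 4696 UMIs. The intervals of these shares overlap. Ccl4 ranked second of 239 genes in DOPAC and first of 1411 in Control by variance over mean at 1000 UMIs per cell, at 11.4 and 8.26.

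Ccl3, a neighbouring gene of the same chemokine family, was at 637 CPM in DOPAC and 392 CPM in Control, and 55.8% and 52.2% of its UMIs lay in 2 and 7 cells above 2000 CPM. Ccl5, a chemokine of T and NK cells, was at 526 and 81.9 CPM (interval of the fold 4.73 to 8.65), with a UMI in 25 of 33 and 76 of 147 cells. Its log2 ratio of 2.69 was 0.60 with a Siglech minimum of 1 UMI, 0.97 without the C1q condition, 1.47 with the further exclusion genes, 1.54 with 1 UMI of each exclusion set allowed, 1.86 with no exclusion genes and 2.16 without the 4 cells that stand apart. It was 2.21 without each highest cell and 3.24 with members thinned to 1000 UMIs. Thinned to 1000 UMIs, 35.5% of DOPAC pDC and 3.42% of Control pDC had a Ccl5 UMI. In the T gate Ccl5 was at 5836 CPM in DOPAC and 3563 CPM in Control. That gate, which leaves out cells with a C1qa or C1qb UMI, held 42.2% and 10.5% of the libraries. The part of free T-cell RNA in the pDC value was not tested. Cxcl2 had 53 of its 75 DOPAC UMIs in 1 cell, and without each library's highest cell its fold was 0.94 (0.58 to 1.45). Of 12 chemokine and cytokine genes, 7 had an interval above 1 and 1 below, against 6.95% and 6.53% of all genes, with a median of 0.78. That median was -0.31 without the 4 cells that stand apart, -0.13 with a Siglech minimum of 1 UMI and 0.0026 without the C1q condition.

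**Figure D4:**
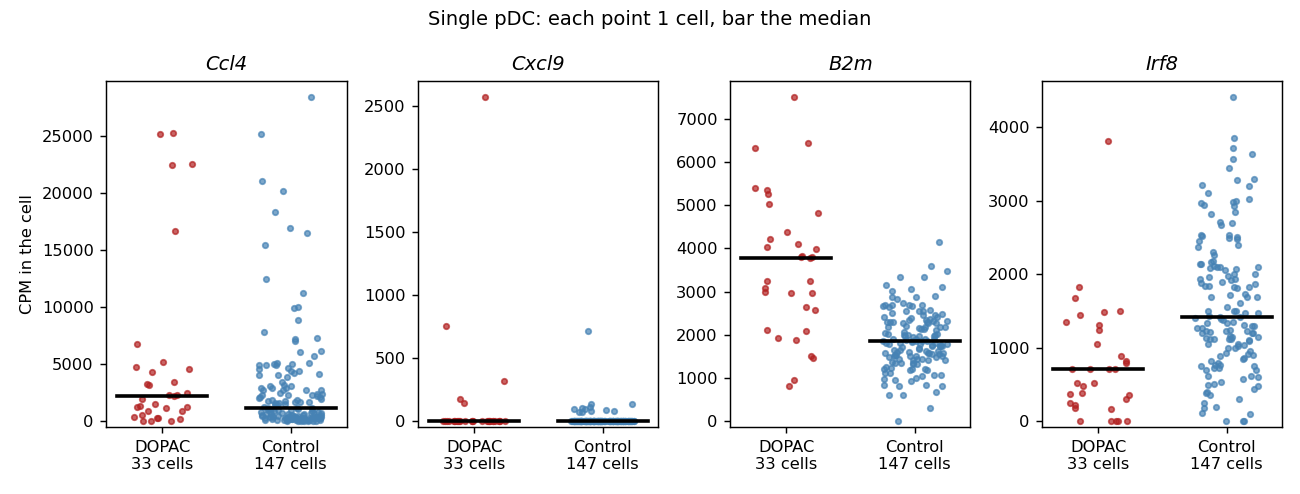
CPM in single pDC for Ccl4, Cxcl9, B2m and Irf8, with DOPAC left of Control, each point 1 cell and each bar the median. Ccl4 and Cxcl9 have few very high cells. The median is higher in DOPAC for Ccl4 (2189 and 1116 CPM) and B2m (3786 and 1843 CPM), lower for Irf8 (702 and 1416 CPM) and 0 in both libraries for Cxcl9.

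Of 16 pDC transcription factors, 2 had an interval above 1 and 4 below, against 6.95% and 6.53% of all genes, with a median of -0.24 that turned to 0.038 with the further exclusion genes. Irf8 was at 740 CPM in DOPAC and 1601 CPM in Control pDC, 100 and 2502 UMIs (0.463-fold, 0.375 to 0.565). Its cell medians were 702 and 1416 CPM, and 28 of 33 and 144 of 147 cells had a UMI. The log2 ratio of Irf8 stayed between -1.34 and -0.88 under the other settings. In other gates Irf8 was lower in DOPAC in cDC1, at 618 against 859 CPM, near equal in cDC2, at 148 against 150 CPM, and higher in T cells, at 197 against 100 CPM. Runx2 and Klf13 also had intervals below 1, at 533 and 686 CPM and at 252 and 399 CPM. Zeb2, which acts in pDC commitment, was at 2332 and 1847 CPM, and Id2, an inhibitor of E proteins, at 156 and 73.6 CPM, both with intervals above 1. Without each gene's highest cell the intervals of Runx2 (0.60 to 1.003) and Zeb2 (0.9995 to 1.29) included 1. Spib and Bcl11a, factors of pDC identity, were at 141 and 170 CPM and at 259 and 286 CPM with intervals that included 1.

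Of 38 surface and secreted pDC genes, 4 had an interval above 1 and 12 below, against 6.95% and 6.53% of all genes. The median of -0.10 turned to 0.015 without the 4 cells that stand apart. Mctp2, a membrane protein gene abundant in pDC, was at 1659 CPM in DOPAC and 2799 CPM in Control (interval of the fold 0.52 to 0.68). Smim5 was at 74.0 and 255 CPM, Cd7 at 311 and 566 CPM and Cd300c at 133 and 253 CPM. Dntt, a template-independent DNA polymerase of lymphoid progenitors, had 4 UMIs in 2 of 33 DOPAC cells and 236 UMIs in 90 of 147 Control cells, or 29.6 and 151 CPM. Thinned to 1000 UMIs, 0 of 31 DOPAC cells, which allows up to 9.68% at a limit of 3 counts and 11.2% by the exact interval, and 14.4% of 146 Control cells had a Dntt UMI. Ly6c2 was at 1548 and 907 CPM, with reads that its near copy Ly6c1 may share, and Klra17 at 326 and 150 CPM, both higher in DOPAC.

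Of 25 genes of endosomal sensing, 1 had an interval above 1 and 4 below, against 6.95% and 6.53% of all genes, with a median of 0.16. Tyrobp, the adaptor of SIGLEC-H, was at 1777 CPM in DOPAC and 2690 CPM in Control (interval of the fold 0.58 to 0.75), and Unc93b1, which carries Toll-like receptors to endosomes, at 281 and 402 CPM. Tlr7 was at 267 and 195 CPM with an interval that included 1, and Traf3 at 296 and 171 CPM with one above it, which without its highest cell ran over 1 (0.947 to 2.07). Tyrobp was lower in DOPAC in monocyte-macrophage cells too, at 1505 against 1784 CPM, and in NK cells, at 965 against 1744 CPM.

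Immediate early genes were more often lower in DOPAC than all genes. Of 16, 1 had an interval above 1 and 8 below, against 6.95% and 6.53% of all genes, with a median of -0.61. Jund was at 555 CPM in DOPAC and 1276 CPM in Control pDC (interval of the fold 0.34 to 0.55), Jun at 170 and 414 CPM and Junb at 81.5 and 333 CPM, all subunits of the AP-1 factor. Egr1 had 0 UMIs in DOPAC and 91 in Control, in 31 cells. Fos was at 88.9 and 128 CPM with an interval that included 1, and Atf3 was at 185 and 113 CPM with one above it, which included 1 without its highest cell (0.545 to 1.76). With the further exclusion genes the list median was 0.087. Jund and Junb were also lower in DOPAC in cDC1, cDC2, mature DC, monocyte-macrophage, NK and T gates, for Junb in T cells at 212 against 1280 CPM. These genes respond to tissue dissociation as well as to signals, and the part of handling was not tested.

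Of 11 heat shock genes, 0 had an interval above 1 and 5 below, against 6.95% and 6.53% of all genes. The median of -0.34 turned to 0.43 with the further exclusion genes and to 0.026 with members thinned to 1000 UMIs. Hspb1 had 0 UMIs in DOPAC and 188 in Control, of which 183 lay in 6 of 147 cells. Hspa1a had 0 and 135 UMIs, with 65 of the 135 in 1 Control cell. Hsp90aa1, at 726 CPM in DOPAC and 801 CPM in Control, had cell medians of 676 and 446 CPM. The lower sums of Hspb1 and Hspa1a thus came with few very high Control cells.

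NRF2 controls antioxidant genes, and DOPAC is a catechol, a class whose oxidation products react with thiols. Of 16 NRF2 targets, 5 had an interval above 1 and 1 below, against 6.95% and 6.53% of all genes, with a median of 0.65. The summed list was near equal, at 10004 CPM in DOPAC and 10026 CPM in Control, and its cell medians were 8085 and 9805 CPM. The list medians in other gates were 0.56 in cDC1, 0.48 in mature DC, 0.41 in cDC2, 0.37 in T and 0.25 in monocyte-macrophage cells. Txn1, thioredoxin, was at 496 CPM in DOPAC and 295 CPM in Control (1.68-fold, 1.28 to 2.18), with a UMI in 23 of 33 and 132 of 147 cells. Txnrd1, its reductase, was at 96.3 and 37.1 CPM. Hmox1, haem oxygenase, was at 133 and 26.9 CPM, but 10 of its 18 DOPAC UMIs lay in the 1 cell with most Slc7a11. The ferritin genes Fth1 and Ftl1 were at 6161 and 6736 CPM and at 1555 and 1743 CPM. Nfe2l2, which encodes NRF2, was at 66.6 and 146 CPM (interval of the fold 0.21 to 0.88). Without each gene's highest cell 2 of the 16 had an interval above 1 and 2 below, against 3.49% and 10.2% of all genes. The median was 0.31 without the 4 cells that stand apart, and thinned to 1000 UMIs per cell it was -0.071.

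Secretory genes did not share a direction. Of 28, 3 had an interval above 1 and 4 below, against 6.95% and 6.53% of all genes. The median of -0.026 turned to 0.24 with the further exclusion genes, 0.22 with members thinned to 1000 UMIs, 0.063 without the 4 cells that stand apart and 0.0027 without the C1q condition. Xbp1, needed by secretory cells, was at 370 CPM in DOPAC and 234 CPM in Control, Sec61g, a subunit of the protein channel, at 852 and 527 CPM, and Ern1, the sensor kinase upstream of Xbp1, at 392 and 726 CPM.

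Among genes not on a list, Alcam, an adhesion molecule of dendritic cells and activated T cells, was at 2251 CPM in DOPAC and 884 CPM in Control pDC (2.55-fold, 2.24 to 2.88). Its UMIs were in 27 of 33 and 116 of 147 cells, and without each highest cell the fold was 2.37 (2.07 to 2.72). Alcam was also higher in DOPAC cDC1, at 1564 against 714 CPM, and in T cells, at 576 against 240 CPM, and in cDC2 it was at 1545 and 1477 CPM. With the further exclusion genes its log2 ratio in pDC was 0.35. The ribosomal protein genes Rps27, Rps28 and Rps29 were at 3199 and 1590, 1933 and 935, and 3606 and 1755 CPM, and the T gate had them higher in DOPAC too.

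Some differences were of like size in other gates. The mitochondrial gene mt-Nd4l was at 866 CPM in DOPAC and 82.5 CPM in Control pDC (10.5-fold, 8.10 to 13.6), and at 920 and 63.3 CPM in T cells and 559 and 54.5 CPM in monocyte-macrophage cells. Genes at least 1.5-fold apart in one direction in the T, cDC2 and monocyte-macrophage gates numbered 110 higher and 207 lower in DOPAC, and Ifi27l2a, Gbp5, Nlrc5 and Cxcl9 are among the higher ones. Gm42418, a gene model that collects ribosomal RNA reads, was at or above 20000 CPM in 4 of 33 DOPAC pDC and 1 of 147 Control pDC and was the most variable gene in DOPAC.

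**Figure D5:**
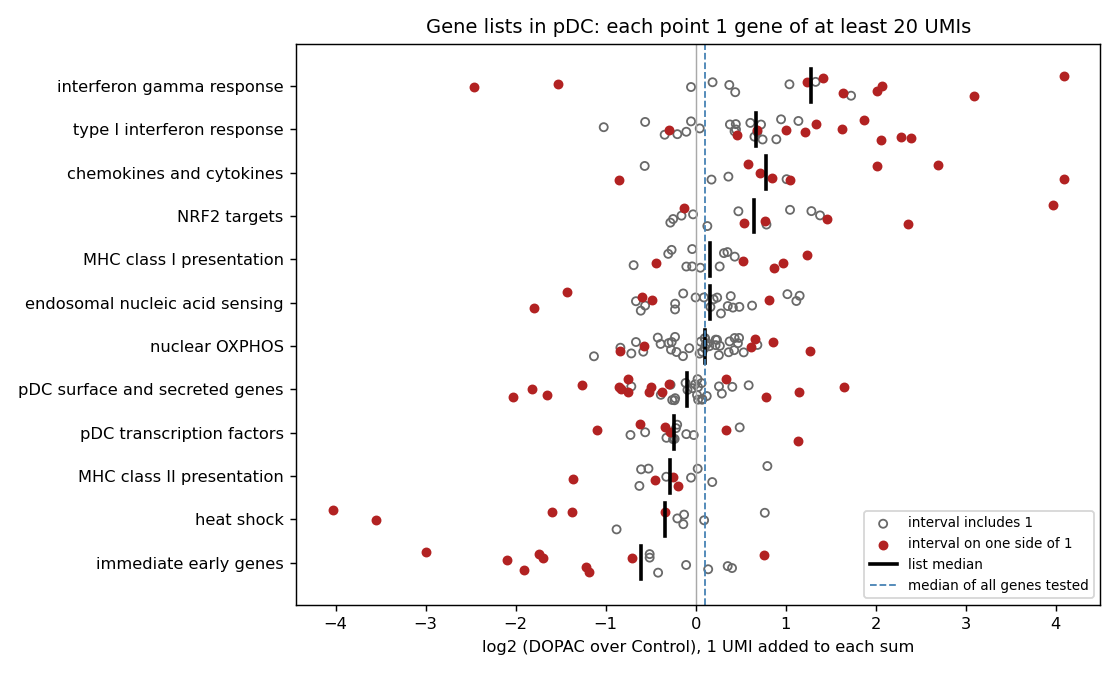
Log2 ratio of DOPAC over Control pDC for each gene of at least 20 UMIs in 12 lists, with filled points for intervals on one side of 1, black bars for list medians and a dashed line for all genes (0.10). The interferon, chemokine and NRF2 lists lie to the right and immediate early genes to the left, with wide spread in every list. The chemokine median turns to -0.31 without the 4 cells that stand apart, and the immediate early median to 0.087 with the further exclusion genes. After thinning, the interferon gamma and NRF2 medians lie below 0 over the members that keep enough UMIs, which are not the whole lists.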

How the data were processed

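Raw UMI counts per gene and barcode (32285 genes, no normalization) were deposited by the authors as 10x matrices; Cell Ranger 7.0.1 made them per the file headers, on GRCm38 per the submitters' processing notes. Barcodes under 500 UMIs, under 200 genes or over 10% mitochondrial UMIs were dropped, which kept 10095 DOPAC and 8444 Control cells. Doublets were scored with Scrublet (scanpy 1.11.5) and left in the main analysis; in the DOPAC library its automatic threshold marked 0 cells, so the 870 highest scores were removed in that alternative, with 0 members among them, and in Control 339 cells with 3 members. Counts were summed over the members of a library and divided by their total (CPM). Log2 ratios had 1 UMI added to each sum, and folds had exact conditional 95% intervals; genes with at least 20 UMIs were compared. Shares had exact Clopper-Pearson and differences Newcombe intervals. All intervals cover counting error only. The fold and its interval were tried on sums simulated with counting error only, which cannot show how the interval does when cells vary. Other cell classes were gated by fixed genes and exclude Siglech. All but the monocyte-macrophage gate also exclude C1qa and C1qb UMIs, and all but the T gate exclude Cd3 UMIs.

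The members and gene lists were chosen with earlier results of these data known. Named genes were the label markers and gate genes, up to 4 members of each list by size of ratio and up to 4 by level, the 10 most raised and 10 most lowered genes with and without library-wide genes, the 20 leading genes (at least 50 CPM in both libraries) and the 10 most variable per library; other genes named were chosen after their values were seen. Coordinates are GENCODE and RefSeq on GRCm38. Of the listed genes, 5 are not analysed here. Analyses used numpy 2.4.6, scipy 1.17.1 and pandas 2.3.3.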

Additional observations from a re-analysis of the deposited data

How the results depend on the processing

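With 1 library per group the design gives no test, and p-values, replicate errors and leave-one-out fits were not possible. No paired analysis was possible because each group has 1 library and the shared replicate number pairs nothing. The pDC share difference was -1.41 points and moved to -0.128 with further exclusion genes, -5.26 with no exclusion genes, -3.25 with no C1q condition and -3.32 with 1 UMI of each exclusion set allowed; the last 3 were added after the data were seen, as were the minimum of 250 UMIs, the settings without cells that stand apart and without the highest cell of each gene. Genes at least 1.5-fold higher and lower in DOPAC numbered 1177 and 2072, and 486 and 731 with further exclusion genes, 274 and 438 with members thinned to 1000 UMIs, 612 and 1098 at 50 UMIs, 102 and 217 at 250 UMIs, 662 and 3177 without each gene's highest cell, and 2816 and 6646 with no minimum. The settings with fewer genes tested lower these counts by construction. Centring on the median log2 ratio gave 976 higher and 2323 lower genes. Lists with a median at least 0.5 above that of all genes numbered 10. These include the marker lists of T cells, NK cells, plasma cells and neutrophils, and the neutrophil and metallothionein lists rest on 1 gene each. The number was 6 with a Siglech minimum of 1 UMI, 4 with no exclusion genes, 5 with no C1q condition and 5 with 1 UMI allowed. It was 4 without cells that stand apart, 5 at 50 UMIs and 3 at 250 UMIs. It was 11 with doublets removed, 12 with 0.5 UMI added to each sum and between 8 and 10 under the other settings. Over 102 named genes and 1865 values, 1728 were counted as the same, 127 as moved and 10 in 6 genes as turned in direction. That count leaves out some changes of sign. The log2 ratio ran from -0.73 to 0.52 for Klk1, -1.16 to 0.45 for Irf7 and -1.37 to 0.97 for Cd8b1, each with 0 values counted as turned. The log2 ratio of Cxcl2 turned to -0.93 with a Siglech minimum of 1 UMI, -0.54 with no exclusion genes, -0.10 with no C1q condition, -1.10 without cells that stand apart and -0.030 without its highest cells. The setting without cells that stand apart left out the DOPAC cell highest in Cxcl2, at 7166 CPM, but kept the highest Control cell, at 4753 CPM. Cxcl10 turned to -0.31 without cells that stand apart, Hmox1 to -0.35 and Grm8 to 0.18 with no exclusion genes, Jun to 0.12 with further exclusion genes, and H2-Aa to 0.025 with at most 5% mitochondrial UMIs. The cause was not tested for these. Depth limits the DOPAC values, where 1 UMI is 7.40 CPM.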
